A study of Homo sapiens with 12 samples.

Results

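The 6 genes described here, IFI6, IFI27, IFI44, IFI44L, IFI35 and NMI, are interferon-induced genes that fall into 3 related pairs. All probes whose platform symbol is 1 of the 6 were taken, each on its own, which gave 8 probes for 6 of the 20046 genes named on the array. The genes were picked with earlier results of these arrays in view, in which constructs were set against the control plasmid, so those differences are given as a description without a p-value. RNA came from A549, an established human non-small cell lung cancer line, collected 24 h after the cells were given a plasmid with jetPRIME, a transfection reagent. The 4 groups received full-length SEMA5A (Full), its extracellular domain (ECD), its intracellular domain (ICD) or a control plasmid (Empty), with 3 single-colour bead arrays each. SEMA5A is a transmembrane semaphorin, a family first known for guiding axons. All 4 groups, the controls included, carried a plasmid delivered with the same reagent, and cells without any plasmid are not analysed here. Neither the promoter driving the constructs nor the share of cells that took them up is stated by the labels. The labels number the replicates without saying whether they were separate transfections, so p-values reflect array-to-array spread alone, and that spread may be technical.

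Type I interferon binds a receptor on the cell surface, and signalling through the receptor's kinases JAK1 and TYK2 leads to a complex containing IRF9. That complex binds interferon-stimulated response elements in promoters and switches on a large set of genes. IFI6 and IFI27 are small hydrophobic proteins of the ISG12 family found at intracellular membranes, and both restrict viruses in cultured cells. IFI44 and IFI44L are paralogues that bind the cochaperone FKBP5, and IFI44L in blood cells is widely used as a sign of interferon exposure. IFI35 and NMI share a domain through which they bind each other, and both respond to interferon in epithelial cells.

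Per array, 18659 to 20366 of the 47323 probes exceeded background (detection p under 0.05). Median background lay at an intensity of 96.1 to 101.8, and 18728 probes, among them all 8 member probes, entered the tests because they were above background on all 3 arrays of at least 1 group. The 95th percentile of intensity divided by background was 9.53 to 9.78 for ECD and 8.31 to 9.28 for the remaining 9 arrays. The 2 SEMA5A probes were above background in 0 of 24 values, so the arrays do not check the constructs. Of 9 A549 and epithelial markers, NQO1, KRT8 and KRT18 were above background on all 12 arrays, while KRT19, CDH1, AKR1B10 and AKR1C1 were above it on none. EPCAM was above it on 2 arrays and ALDH1A1 on 11, both near background, with intensities of at most 111.5 and 121. AKR1B10 and AKR1C1 are known for strong expression in A549, so these 2 go against the labelled line, and whether their probes work was not tested. Of 9 markers of blood, endothelial and fibroblast cells 4 were above background on no array and none on all 12, with intensities of 114 at most. In these bulk samples a stronger signal per cell and a larger share of responding cells cannot be told apart.

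IFI6 differed between all 4 groups on both of its probes. Probe ILMN_1687384 had intensities of 2644.5, 2953.9 and 2341.4 with Full, 7609, 7367.3 and 6934.6 with ECD, 1543.2, 1716.3 and 1460 with ICD, and 643.5, 578.8 and 633.4 with Empty. Probe ILMN_2347798, which is annotated to another IFI6 transcript record, had 531.1, 686.4 and 385.5 with Full, 1373.5, 1615.3 and 1397.2 with ECD, 289.7, 309.9 and 324 with ICD, and 160.2, 160.9 and 154.1 with Empty. On both probes the 4 groups stood apart without overlap, in the order ECD, Full, ICD, Empty. On the normalized log2 scale the first probe differed from Empty by 2.19 ± 0.11 with Full, 3.71 ± 0.11 with ECD and 1.45 ± 0.11 with ICD (SE, n = 3 arrays each). The second differed by 2.53 ± 0.15 with Full, 4.03 ± 0.15 with ECD and 1.54 ± 0.15 with ICD. The 2 probes thus differed in their distance from Empty by 0.09 to 0.35 on this scale, with the second further away. With the deposited log2 values the first probe was further away, at 2.03 with Full, 3.53 with ECD and 1.32 with ICD. The second then gave 1.74, 3.08 and 0.95.

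IFI27 lay near background in Empty cells. Its single probe ILMN_2058782 had 137.9, 163.9 and 145.3 with Full, 325.5, 379.7 and 338.2 with ECD, 115.3, 120 and 121 with ICD, and 118.3, 103.4 and 107.1 with Empty, where 2 of 3 arrays were above background. The ECD arrays lay far above the rest and the Full arrays above the ICD arrays, while ICD and Empty overlapped. Log2 differences from Empty were 1.28 ± 0.14 with Full, 3.08 ± 0.14 with ECD and 0.40 ± 0.14 with ICD (SE, n = 3 each). Without background correction, and likewise with the deposited log2 values, the same differences were 0.45 with Full, 1.52 with ECD and 0.12 with ICD.

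**Figure D1:**
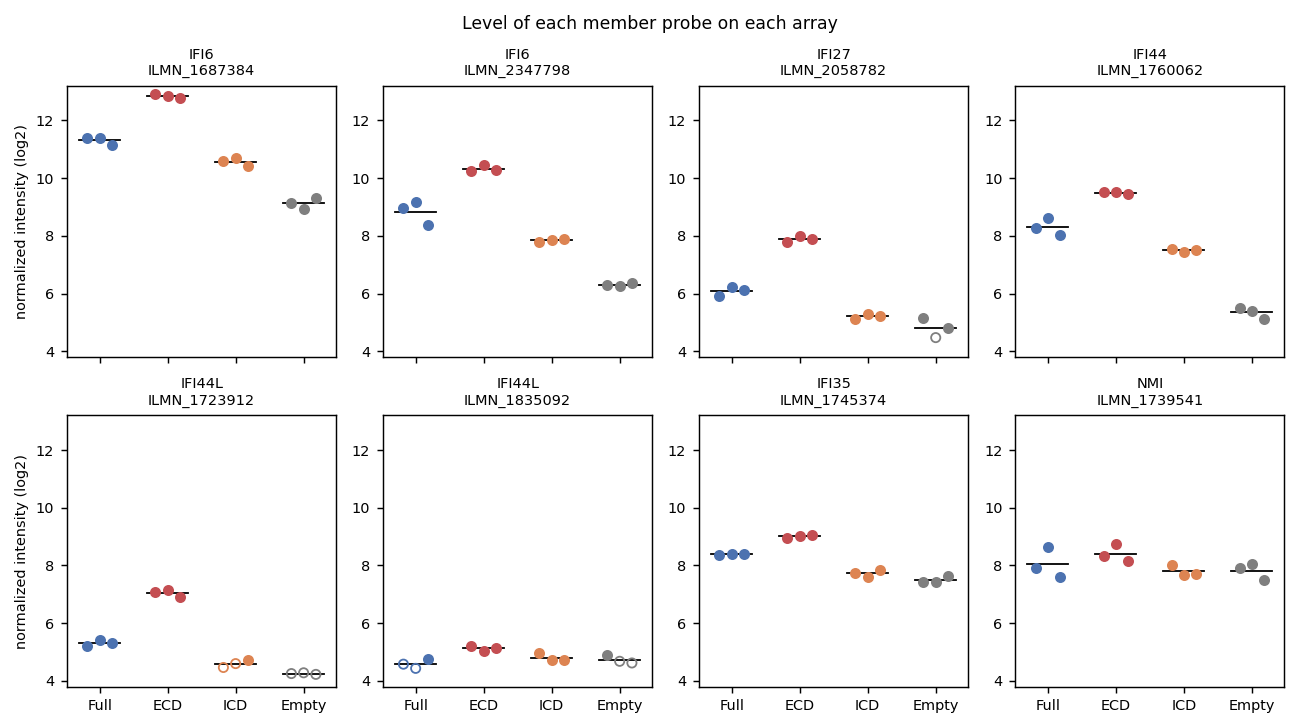
Normalized intensity (log2) of each of the 8 member probes on the 12 arrays, by group. Each point is 1 array, open points were not above background, and bars are group means. Levels of different probes are not comparable. On 6 probes the ECD arrays are highest and the Full arrays next, while NMI and IFI44L probe ILMN_1835092 spread little between groups.

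The promoter windows of IFI6 and IFI27 are shown because they hold repeated matches to the core of the interferon response element, GAAANNGAAA. They run from 250 bases before to 50 bases after the transcription start, are taken from RefSeq on GRCh38.p14, and read 5′ to 3′ along the gene. IFI6 lies at chr1:27672143-27672442 on the minus strand and IFI27 at chr14:94110486-94110785 on the plus strand. Capitals mark matches to GAAANNGAAA on either strand and to the STAT motif TTCNNNGAA, here and in the windows printed below.
IFI6: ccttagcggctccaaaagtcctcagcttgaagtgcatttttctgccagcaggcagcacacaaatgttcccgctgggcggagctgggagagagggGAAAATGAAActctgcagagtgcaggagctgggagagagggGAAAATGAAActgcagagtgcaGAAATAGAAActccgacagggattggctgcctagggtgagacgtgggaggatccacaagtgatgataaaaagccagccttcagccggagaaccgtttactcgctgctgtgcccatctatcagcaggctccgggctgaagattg
IFI27: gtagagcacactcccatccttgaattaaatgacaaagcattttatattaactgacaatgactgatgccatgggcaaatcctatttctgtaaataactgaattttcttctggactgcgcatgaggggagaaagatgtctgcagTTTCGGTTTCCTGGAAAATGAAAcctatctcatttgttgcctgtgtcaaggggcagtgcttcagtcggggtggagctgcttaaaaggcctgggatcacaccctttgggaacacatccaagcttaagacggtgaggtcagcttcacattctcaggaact
IFI6 held 3 matches to GAAANNGAAA, beginning 156, 115 and 93 bases before the start, and 2 of them lie in the copies of a 29-base repeat. IFI27 held 2, beginning 108 and 95 bases before the start on opposite strands, with a match to TTCNNNGAA that overlaps both. The longest run that the IFI6 and IFI27 windows share is ggaaaatgaaac, of 12 bases, which contains the core. Of 27305 promoters of the same length, 1 per gene, 3.65% held at least 1 match to GAAANNGAAA on either strand, 0.271% held at least 2, and 7.88% held TTCNNNGAA.

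IFI44 was higher than Empty with each of the 3 constructs. Probe ILMN_1760062 had intensities of 355.9, 496.2 and 320.7 with Full, 870.6, 904.4 and 825.8 with ECD, 261.3, 251.4 and 269.6 with ICD, and 128.1, 126.2 and 113.6 with Empty. The groups did not overlap, and all 12 arrays were above background. Log2 differences from Empty were 2.95 ± 0.14 with Full, 4.15 ± 0.14 with ECD and 2.15 ± 0.14 with ICD (SE, n = 3 each), and with the deposited log2 values 1.69 with Full, 2.70 with ECD and 1.09 with ICD.

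IFI44L, the neighbour of IFI44 on chromosome 1, was read by 2 probes that disagreed. Probe ILMN_1723912, annotated to the RefSeq transcript, had 118.1, 130.6 and 118.7 with Full, 233.6, 250.8 and 214.1 with ECD, 100.7, 105.1 and 109.4 with ICD, and 94.6, 96.5 and 91 with Empty. It was above background on all Full and ECD arrays, on 1 of 3 ICD arrays and on no Empty array. Set against the mean over Empty arrays of the lowest normalized signal that passed detection, it was at least 1.54-fold higher with Full and at least 5.17-fold higher with ECD, with measured means of 5.31 with Full, 7.05 with ECD and 4.26 with Empty on the log2 scale. No fold is given for ICD, whose mean of 4.60 lay below that bound.
Probe ILMN_1835092, annotated to an expressed sequence tag, ranged over 105.7 to 107.4 with Full, 120.3 to 123.1 with ECD, 107.8 to 111.5 with ICD and 103.8 to 112.6 with Empty. Its ECD arrays were the highest, and the other 3 groups lay near background, with 1 of 3 Full and 1 of 3 Empty arrays above it. Relative to ICD the ECD group was 2.45 ± 0.10 higher on the log2 scale by the first probe, measured above background on 1 of 3 ICD arrays, and 0.33 ± 0.11 higher by the second (SE, n = 3 each).

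The IFI44L and IFI44 windows are shown as those of neighbouring paralogues, on the plus strand at chr1:78620198-78620497 and chr1:78649539-78649838, again from RefSeq on GRCh38.p14.
IFI44L: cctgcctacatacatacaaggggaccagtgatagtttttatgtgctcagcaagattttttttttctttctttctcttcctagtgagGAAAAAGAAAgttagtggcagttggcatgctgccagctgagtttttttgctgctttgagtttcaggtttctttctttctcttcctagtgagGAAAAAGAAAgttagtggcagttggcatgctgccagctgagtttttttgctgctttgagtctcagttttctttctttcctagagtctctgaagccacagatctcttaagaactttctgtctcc
IFI44: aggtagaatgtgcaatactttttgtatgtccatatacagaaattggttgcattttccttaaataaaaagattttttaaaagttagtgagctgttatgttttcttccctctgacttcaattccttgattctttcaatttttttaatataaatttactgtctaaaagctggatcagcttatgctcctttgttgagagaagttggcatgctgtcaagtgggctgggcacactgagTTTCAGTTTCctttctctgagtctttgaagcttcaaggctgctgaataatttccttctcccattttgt
The IFI44L window holds a tandem repeat of 85 bases, with 1 match to GAAANNGAAA in each copy, beginning 164 and 73 bases before the start. Repeats at least that long occurred in 0.0916% of the 27305 promoters, and repeats at least as long as the 29 bases in IFI6 in 0.905%. IFI44 held 1 match, beginning 18 bases before the start. The 2 windows share agttggcatgctg, their longest common run at 13 bases, which lies outside the matches.

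**Figure D2:**
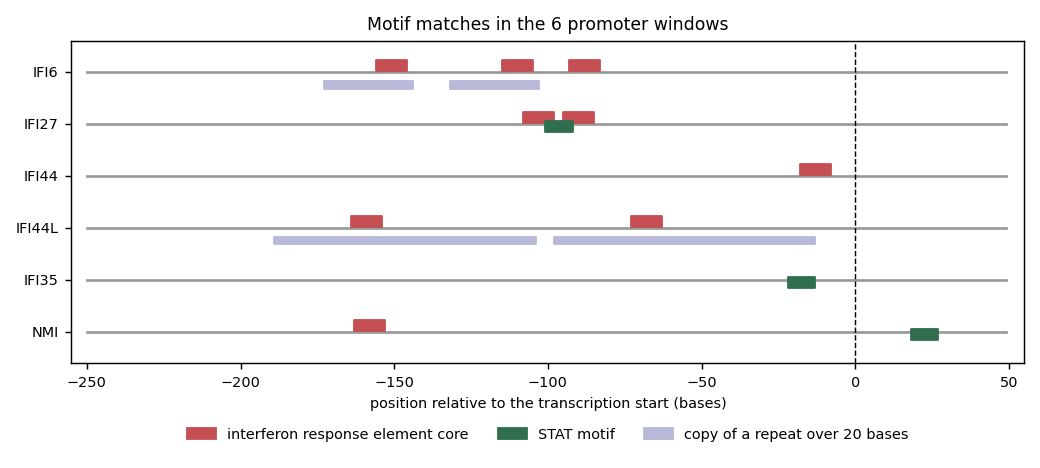
Positions of motif matches in the 6 promoter windows, in bases relative to the transcription start (dashed line at 0). Red marks GAAANNGAAA, green TTCNNNGAA, and pale bars the copies of a repeat over 20 bases. Matches to GAAANNGAAA lie in 5 of the 6 windows, and 2 windows hold long repeats.

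IFI35 differed less between groups than the IFI6, IFI27 and IFI44 probes, and NMI less again. IFI35 probe ILMN_1745374 had 373.6, 436.8 and 391.4 with Full, 620.4, 672.8 and 661.1 with ECD, 287.3, 270.4 and 316.1 with ICD, and 255.9, 256.9 and 255.9 with Empty. The order was again ECD, Full, ICD, Empty, and after normalization ICD and Empty overlapped. Log2 differences from Empty were 0.88 ± 0.10 with Full, 1.51 ± 0.10 with ECD and 0.22 ± 0.10 with ICD (SE, n = 3 each).
NMI probe ILMN_1739541 had 298.9, 502.2 and 258 with Full, 439.8, 569.6 and 389.6 with ECD, 326.9, 280.2 and 297.8 with ICD, and 323.1, 348.9 and 240.3 with Empty. The ECD arrays lay above all ICD and all Empty arrays, and Full overlapped each of the other 3 groups, with its second replicate far above its other 2. Log2 differences from Empty were 0.23 ± 0.23 with Full, 0.58 ± 0.23 with ECD and -0.02 ± 0.23 with ICD (SE, n = 3 each). The SDs between arrays were 0.54 with Full, 0.30 with ECD, 0.19 with ICD and 0.28 with Empty.

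The IFI35 and NMI windows are shown for contrast with the other pairs, at chr17:43006534-43006833 on the plus strand and chr2:151289619-151289918 on the minus strand (RefSeq, GRCh38.p14).
IFI35: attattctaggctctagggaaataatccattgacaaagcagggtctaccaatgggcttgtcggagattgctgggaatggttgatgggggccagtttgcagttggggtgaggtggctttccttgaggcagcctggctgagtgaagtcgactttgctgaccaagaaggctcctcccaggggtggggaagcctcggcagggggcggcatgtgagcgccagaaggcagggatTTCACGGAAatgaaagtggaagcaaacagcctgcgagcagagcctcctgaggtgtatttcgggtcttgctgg
NMI: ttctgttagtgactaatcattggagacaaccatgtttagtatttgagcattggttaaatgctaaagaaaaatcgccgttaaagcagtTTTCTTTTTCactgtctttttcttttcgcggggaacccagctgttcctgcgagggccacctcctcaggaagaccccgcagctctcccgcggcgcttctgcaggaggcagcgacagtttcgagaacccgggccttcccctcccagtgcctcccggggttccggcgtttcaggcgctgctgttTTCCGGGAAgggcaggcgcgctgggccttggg
The letters of GAAANNGAAA were not in the IFI35 window, which held 1 TTCNNNGAA beginning 22 bases before the start. NMI held 1 match to each, with GAAANNGAAA beginning 163 bases before the start and TTCNNNGAA 18 bases after it.

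Against Empty, the fit over all 18728 probes (limma, Benjamini-Hochberg adjusted p under 0.05) called 6 of 8 member probes higher with Full, where 0.769% of all probes were called higher. With ECD it called 7 of 8, where 5.77% of all were, and with ICD 3 of 8, where 3.19% were. Since the genes were chosen on these comparisons, the counts only describe them. None of the 8 was called lower. The median log2 difference of the 8 probes was 1.17 with Full, 2.94 with ECD and 0.37 with ICD, beside medians within 0.01 of 0 over all probes. These 3 comparisons share the Empty arrays.

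**Figure D3:**
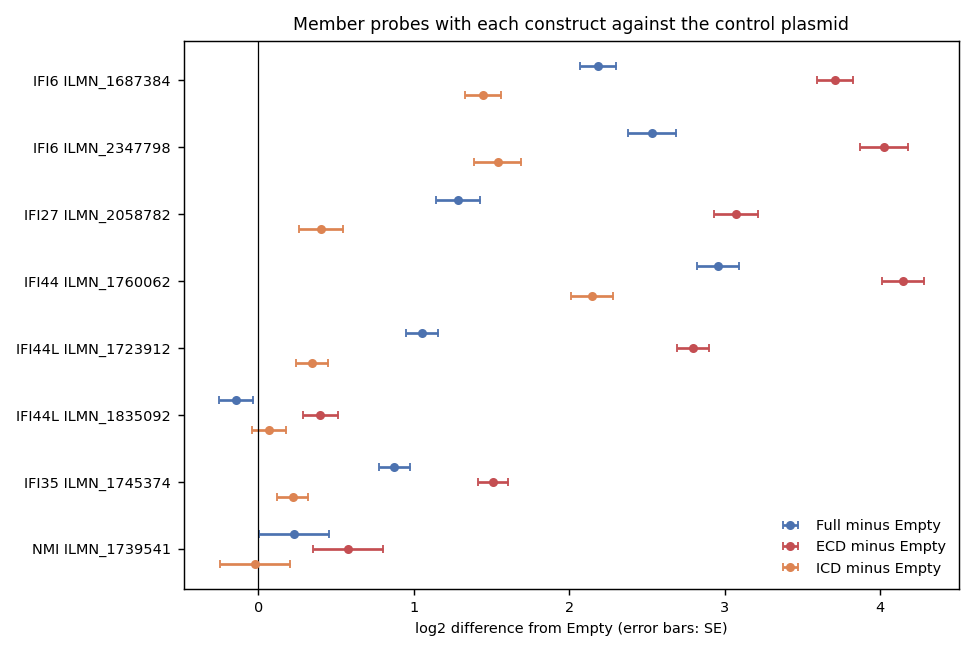
Log2 difference of each member probe from Empty with Full, ECD and ICD (3 arrays each, error bars are SE from the limma fit). With ECD the differences run from 0.40 for IFI44L probe ILMN_1835092 to 4.15 for IFI44, and for every probe the ECD point is the highest of the 3.

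The comparison of ECD with ICD asks which part of SEMA5A went with the higher levels. Here, and in the 2 comparisons that follow, the difference is that between 2 comparisons with Empty on which the genes were chosen. The counts and p-values are therefore not independent of that choice. ECD was higher on 6 of 8 member probes, against 1.13% of all 18728 probes that were called higher, and on none was it lower. IFI27 was 6.37-fold higher (log2 2.67 ± 0.14, SE, n = 3 arrays each; limma adjusted p = 2.3e-08), but by 1.41 on the log2 scale with the deposited values, where IFI6 differed by 2.21 and 2.13 and IFI44 by 1.61. IFI6 was 4.81-fold and 5.6-fold higher by its 2 probes (limma adjusted p = 1.5e-08 and 9.2e-08), and IFI44L was 5.46-fold higher by probe ILMN_1723912 (limma adjusted p = 4e-09), with 1 of 3 ICD arrays above background. IFI44 was 4.00-fold higher (limma adjusted p = 1.8e-07) and IFI35 2.44-fold (limma adjusted p = 6.3e-07). NMI differed by 0.60 ± 0.23 and IFI44L probe ILMN_1835092 by 0.33 ± 0.11 on the log2 scale, and neither passed (limma adjusted p = 0.25 and 0.19). All 3 ECD arrays were above all 3 ICD arrays on all 8 probes, as on 11% of all probes. The 95% interval of the log2 difference was 0.12 to 1.08 for NMI. With the deposited log2 values the difference of IFI44L probe ILMN_1723912 was 1.02.

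Full-length SEMA5A contains both domains, and the comparison with ECD asks whether it reached the level of the extracellular part alone. Full was lower on 7 of 8 member probes, where 10% of all probes were called lower and 7.75% higher. IFI27 was 3.46-fold lower (log2 -1.79 ± 0.14, SE, n = 3 each; adjusted p = 5.3e-06 by limma) and IFI44L 3.35-fold lower by probe ILMN_1723912 (limma adjusted p = 2e-07). IFI6 was 2.88-fold and 2.81-fold lower by its 2 probes (limma adjusted p = 3.3e-06 and 4.5e-05) and IFI44 2.29-fold (limma adjusted p = 0.00013). IFI35 was 1.55-fold lower (limma adjusted p = 0.0016), and IFI44L probe ILMN_1835092, with 1 of 3 Full arrays above background, 1.46-fold lower (limma adjusted p = 0.0063). NMI differed by -0.35 ± 0.23 (limma adjusted p = 0.30, 95% interval of the log2 difference -0.83 to 0.13). Without the high second Full replicate it differed by -0.65 (limma adjusted p = 0.026), the only 1 of 22 alternatives that called it. The second ECD replicate, kept in that fit, was also the highest of its group. With the deposited log2 values the difference was -1.07 for IFI27, -0.81 for IFI44L probe ILMN_1723912 and -0.16 for IFI44L probe ILMN_1835092. On the 7 called probes all 3 Full arrays were below all 3 ECD arrays, as on 17.5% of all probes.

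Full was in turn higher than ICD on 6 of 8 member probes, where 1.98% of all were called higher. The second IFI6 probe was 1.99-fold higher (log2 0.99 ± 0.15, SE, n = 3 each; adjusted p = 0.0054 by limma) and the first 1.67-fold (limma adjusted p = 0.0054). IFI27 was 1.84-fold higher, IFI44 1.75-fold, IFI44L 1.63-fold by probe ILMN_1723912, with 1 of 3 ICD arrays above background, and IFI35 1.58-fold (limma adjusted p = 0.0037 to 0.0088). The size depended on the processing for the dim probes, with log2 differences of 0.33 for IFI27 and 0.21 for IFI44L with the deposited log2 values. NMI and IFI44L probe ILMN_1835092 differed by 0.26 ± 0.23 and -0.21 ± 0.11 (limma adjusted p = 0.51 and 0.25). On the 6 called probes all 3 Full arrays were above all 3 ICD arrays, as on 12.3% of all probes. When only the 6 Full and ICD arrays entered the fit the differences were the same but 1 of 8 probes was called, with limma adjusted p of 0.058 to 0.075 for the 5 that were lost. Of the 3 Full arrays, replicate 2 was the highest on 6 of 8 probes. Without it the 6 called differences were 0.65 to 0.82 on the log2 scale, and all 6 were still called (limma adjusted p = 0.007 to 0.012).

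**Figure D4:**
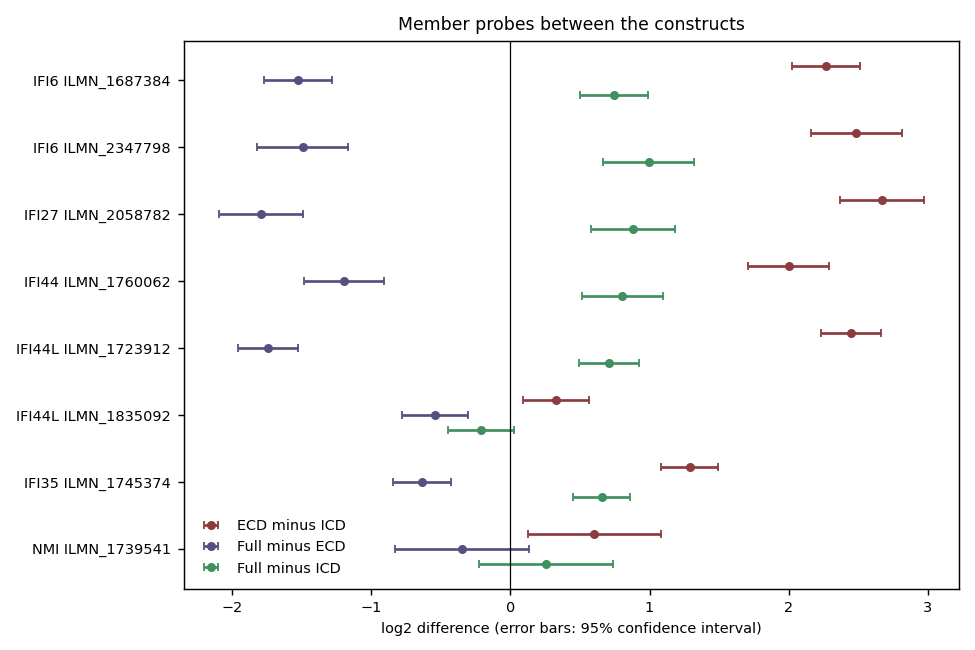
Log2 differences between the constructs for each member probe, as ECD minus ICD, Full minus ECD and Full minus ICD (3 arrays each, error bars are 95% confidence intervals from the limma fit). For 6 probes all 3 intervals stand clear of 0. For NMI the intervals of Full minus ECD and Full minus ICD cross it.

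The log2 difference of Full from Empty minus those of ECD and ICD contains the comparisons with Empty on which the genes were chosen, so it is given as a description without a p-value. It was -3.34 ± 0.19 for IFI44, -2.97 ± 0.16 for IFI6 probe ILMN_1687384, -2.20 ± 0.20 for IFI27 and -0.32 ± 0.32 for NMI (SE, n = 3 arrays a group). The fit called it negative for 7 of 8 member probes, where 12% of all probes were called negative and 11% positive, and the choice of genes bears on that count.

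The 6 genes were set beside other parts of the interferon pathway, each gene read by its brightest tested probe. Among ligands the IFNB1 probe, for interferon beta, passed detection on the 3 ECD arrays but on 0 of the remaining 9. On the background-corrected scale it was at least 2.07-fold higher with ECD than with ICD, with measured log2 means of 5.71 with ECD and 4.29 with ICD. Mean intensities before correction were 141.8 with ECD and 95.1 with ICD. The probe entered the tests through its ECD arrays alone, so no p-value is given. IFNE, for interferon epsilon, was above background on 11 of 12 arrays by probe ILMN_3245702 and differed by 0.09 between ECD and ICD (log2, limma adjusted p = 0.76), while probes for IFNA1, IFNA2, IFNG, IFNL1, IFNL2 and IFNL3 passed on no array. Of 6 receptor genes 0 passed between ECD and ICD or between Full and ICD, where 1.13% and 1.98% of all probes were called higher. IFNGR1, a receptor chain for interferon gamma, was lower with Full than with ECD (log2 -0.56, limma adjusted p = 0.0077). Beside 1.13% of all probes, 3 of 9 tested JAK-STAT and IRF genes were called higher with ECD than with ICD. These were IRF7, which drives further interferon production (log2 1.88, limma adjusted p = 4.4e-08), IRF9, a DNA-binding subunit of the complex that acts on interferon response elements (1.5, 2.9e-07), and IRF1 (1.03, 0.00078). Of 5 tested feedback inhibitors 1 was called higher with ECD than with ICD, and 2 lower with Full than with ECD, where 10% of all probes were called lower. USP18, which acts at the receptor, was in both counts. It was higher with ECD than with ICD (log2 2.38, limma adjusted p = 3.1e-08) and lower with Full than with ECD (-1.48, 1.1e-05).

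Of 41 other interferon targets on the array 34 were tested. Of these 33 were higher with ECD than with ICD, with XAF1 the exception, where 1.13% of all probes were called higher. The median log2 difference was 1.42 beside -0.01 over all probes. Full was lower than ECD for 31 of the 34 (median -1.03), where 10% of all probes were called lower. Full was higher than ICD for 17 (median 0.47), where 1.98% were called higher. Medians over all probes were 0.02 and 0.00. BST2 and DTX3L, among the 33 and the 31, entered the tests through their ECD arrays alone. Their calls are thus not independent of the detection filter. OAS2, which makes a messenger that activates RNase L, was with background correction the 1 target with a larger ECD-ICD difference than IFI27, and XAF1 the 1 with a smaller one than NMI or IFI44L probe ILMN_1835092. All 3 domain contrasts had both IFI6 probes above the targets' median in size.

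**Figure D5:**
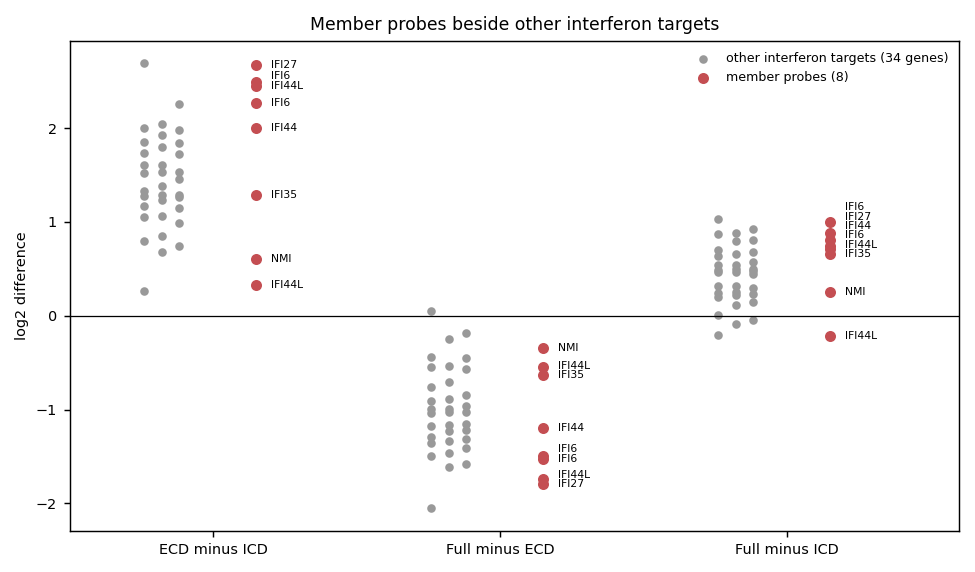
Log2 differences, on the background-corrected scale, between constructs for the 8 member probes (red, with gene names) and 34 other interferon targets (grey, 1 probe a gene), as ECD minus ICD, Full minus ECD and Full minus ICD. IFI27, IFI6 and IFI44L probe ILMN_1723912 lie near the far end of the targets in the first 2 comparisons. There NMI and IFI44L probe ILMN_1835092 lie closer to 0 than most targets.

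Profiles most like each gene's were found as the smallest root mean square difference over the 12 arrays between log2 values, each centred on its own mean. For IFI6 these were IFIH1, an RNA sensor, at 0.26 and USP18 at 0.31. For IFI27 they were IFI44L at 0.20 and OAS2 at 0.23, and for IFI44L OAS2 at 0.17 and IFI27 at 0.20. Both nearest probes to IFI44 were of IFIT3, an RNA-binding antiviral protein, at 0.21. IFI35 lay nearest to UBE2L6, the E2 enzyme for ISG15, at 0.15 and ADAR, an RNA-editing enzyme, at 0.17. NMI lay nearest to 2 probes of CHMP5, a membrane-remodelling protein, at 0.20 and 0.21. For scale, the root mean square of each profile about its own mean was 1.34 for IFI6, 1.19 for IFI27, 1.52 for IFI44, 1.08 for IFI44L, 0.60 for IFI35 and 0.38 for NMI.

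Of 4 tested genes for known partners of the 6 proteins, 1 was called higher with ECD than with ICD, beside 1.13% of all probes. FKBP5, bound by IFI44 and IFI44L, differed by -0.17 between ECD and ICD, HSPA5, a chaperone bound by IFI6, by 0.20, and MYC, bound by NMI, by 0.23 (log2; limma adjusted p = 0.45, 0.39 and 0.34). TRIM21, a ubiquitin ligase bound by IFI35 and NMI and itself induced by interferon, was higher with ECD (log2 1.17, limma adjusted p = 1.7e-05).

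The ISG12 family relatives IFI27L1 and IFI27L2, which flank IFI27 on chromosome 14, were lower with ECD than with Empty on 3 of 4 probes. Of all 18728 probes 1039 were called lower in that comparison, but 211 with median scaling, where these 4 probes were not followed. The relatives, too, were listed with earlier results of these arrays known. IFI27L2 was lower with ECD than with Empty by both of its probes, at log2 -0.58 ± 0.11 and -0.42 ± 0.09 (SE over 3 arrays a group; adjusted p from limma 0.0045 and 0.010). It was higher with Full than with ECD, at 0.56 ± 0.11 and 0.41 ± 0.09 (limma adjusted p = 0.0050 and 0.0090). IFI27L1 was lower with ECD than with Empty by 1 probe (log2 -0.35 ± 0.11, limma adjusted p = 0.047), and the other gave -0.43 ± 0.14 (limma adjusted p = 0.063). That other probe was lower with ICD than with Empty (log2 -0.52 ± 0.14, limma adjusted p = 0.041). None of the 4 probes passed between ECD and ICD (limma adjusted p = 0.36 to 0.82).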

How the data were processed

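Deposited per-probe intensity values (linear, background not subtracted, as the values show) and detection p-values came from one table of 47323 probes. The authors' deposited log2 values equal quantile-normalized log2 intensities within 5e-09, as tested here; no source used here states the bead summary or scanner software. Per the labels, biotin-labelled amplified RNA was hybridized. Probes were named from the platform annotation, where 30113 had 1 symbol, 8 several and 17202 none, and 30074 of the first were matched by Entrez ID to RefSeq genes (GRCh38.p14), with 0 symbols changed. Promoter sequences are RefSeq's, matched by symbol for 6 of 6 genes. IFI27 and IFI44 have 2 entries each, of which the first was used.

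Intensities were background-corrected, quantile-normalized and log2-transformed with neqc (limma 3.58.1, R 4.3.3, offset 16). Every probe with a detection p under 0.05 on all 3 arrays of a group was tested, each separately, in 1 limma fit of 4 group means over 12 arrays (eBayes, 8 residual and 6.79 prior degrees of freedom), two-sided, with Benjamini-Hochberg adjustment over 18728 probes at 0.05 for each of 7 comparisons. Offset and background shrink differences of dim probes, and the number of arrays limits precision. The members and lists were chosen with earlier results of these data known. Named were all member probes, the 2 nearest profiles of each gene and up to 3 genes per list with the smallest p. The interferon ligands, the 4 partner genes and XAF1 were named beyond that rule, after their values were seen. No columns were left unused, and 0 pairs of arrays were identical. The steps were tested on simulated data. Alternatives covered background correction, scaling, detection filter, probe choice, array weights, fitted groups, a replicate block and each array left out. Deviations of same-numbered arrays from their group means correlated weakly (r of -0.087 to 0.113, 1 of 18 pairs over 0.1). For 7 of 12 arrays the best match in another group had the same number. Replicate numbers were not taken as pairs in the main fit. Figures used matplotlib 3.10.9 under Python 3.11.15.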

Additional observations from a re-analysis of the deposited data

How the results depend on the processing

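The counts of called member probes stayed within 1.5 times under all alternatives in 6 of 7 comparisons. In Full against ICD the count was 1 of 8 when only those 6 arrays were fitted, against 6 in the fit of all 12. That fit has fewer arrays to estimate the spread, and whether this lowered the count was not tested. Leaving out 1 array gave 3 to 4 called probes for ICD against Empty, 6 to 8 for ECD against Empty, 6 for Full against Empty, 6 for ECD against ICD, 7 to 8 for Full against ECD, 6 for Full against ICD and 7 for the interaction. With 1 array left out the Full-ICD log2 difference of NMI was -0.041 to 0.49, with the lowest value, and the reversed sign, without Full replicate 2 (limma adjusted p = 0.91). The replicate number as a block in the fit called 6 probes in ECD against ICD, 7 in Full against ECD and 6 in Full against ICD, the same numbers as without it, and 8 against 7 in ECD against Empty. IFI44L probe ILMN_1835092 was not called in the interaction without background correction (log2 -0.18). Over all probes, calls in Full against ICD were 876, but 25 with only those arrays, 198 to 1833 with an array left out and 299 with median scaling, and the cause was not tested. Median scaling called 6 member probes in ECD against ICD, 7 in Full against ECD and 6 in Full against ICD, but moved the split over all probes. It gave 287 higher and 3501 lower in Full against ECD (1452 and 1880 with quantile normalization; median of all probes -0.10), 341 and 22 in ECD against ICD (212 and 99; 0.09), 93 and 206 in Full against ICD (371 and 505; -0.03), and 738 and 3458 in the interaction (2054 and 2253; -0.13). Against Empty it gave 98 and 21 with Full (144 and 57), 2457 and 211 with ECD (1081 and 1039; 0.11) and 371 and 249 with ICD (598 and 622).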
